A study of Rattus norvegicus with 21 samples.

Results

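Of the 21 RNA-seq libraries of the series, 6 make up the comparison described here, namely the 3 libraries called condition 2 and the 3 libraries of the 3 h control. The 6 were taken by their column in the deposited count table and paired by islet preparation. All were primary pancreatic islets of Sprague Dawley rats. Each of the 3 preparations was a separate isolation that combined islets of 8 rats and was split between the groups, so every preparation gave 1 library to each group here. Preparation is a term of the fit, so level differences between isolations are taken out. The p-values rest on how far differences between groups vary from isolation to isolation, pooled over all 21 libraries. The 3 h control was held at 11 mM glucose with no palmitate for 3 h. The deposited sample sheet names condition 2 as 3 h of glucolipotoxicity (GLT), which is 27 mM glucose with 300 µM palmitate. The sample records name the same libraries as 24 h control islets, and the sheet and the records give each other's names to conditions 2 and 3, in 6 of the 21 libraries. Differences between condition 2 and the 3 h control hold under either name, and values that involve other groups are given with the group named. Groups used for reference, named alike in both sources, were 24 h GLT (3 libraries), 3 h GLT with compound D at 300 nM (3 libraries) and 3 h GLT with compound E at 300 nM (1 library, preparation 2), which carry the same glucose and palmitate. The labels give neither a structure nor a target for either compound.

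Islets hold mainly insulin-producing beta cells, with alpha, delta and PP cells, vessels and connective tissue. In a beta cell, metabolism of glucose closes potassium channels, calcium enters, and calcium and cAMP signal through kinases to the transcription factor CREB, which binds cAMP response elements (CREs). Immediate early genes are transcribed within minutes of such signals without new protein synthesis, and many encode transcription factors, while others encode phosphatases, kinases and G protein regulators that damp the signal. Fatty acids such as palmitate are taken into mitochondria for oxidation and act on PPAR receptors. Metallothioneins bind zinc, which beta cells store with insulin, and are induced through metal response elements (MREs) by the zinc sensor MTF1. Long exposure to high glucose together with fatty acids is known to impair beta cells.

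Promoters of genes that rose are shown first, because members of the metallothionein and of the immediate early and feedback lists shared short motifs there. Sequences and coordinates are those of RefSeq for the rat build GRCr8, and each covers the 250 bases before the annotated start, 5′ to 3′ along the gene. They were chosen after the values were seen. Of the 247 genes that rose, 208 had an entry, and of the 12576 genes tested 10175 had one. The first set holds the 4 members of the metallothionein and zinc transporter list that rose, with each MRE (TGCGCNC or TGCACNC on either strand) in capitals.
Mt1a promoter, chr19:10832976-10833225, minus strand: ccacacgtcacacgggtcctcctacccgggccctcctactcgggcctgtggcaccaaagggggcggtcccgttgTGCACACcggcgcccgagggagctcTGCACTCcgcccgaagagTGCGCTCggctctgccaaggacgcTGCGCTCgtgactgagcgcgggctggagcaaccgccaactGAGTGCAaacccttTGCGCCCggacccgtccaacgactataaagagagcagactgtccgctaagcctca
Mt2A promoter, chr19:10838709-10838958, minus strand: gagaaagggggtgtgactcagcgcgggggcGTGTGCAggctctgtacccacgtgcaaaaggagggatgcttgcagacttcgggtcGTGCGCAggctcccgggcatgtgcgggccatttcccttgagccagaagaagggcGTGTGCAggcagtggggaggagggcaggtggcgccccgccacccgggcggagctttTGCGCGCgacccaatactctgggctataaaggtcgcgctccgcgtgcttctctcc
Slc30a1 promoter, chr13:106021769-106022018, plus strand: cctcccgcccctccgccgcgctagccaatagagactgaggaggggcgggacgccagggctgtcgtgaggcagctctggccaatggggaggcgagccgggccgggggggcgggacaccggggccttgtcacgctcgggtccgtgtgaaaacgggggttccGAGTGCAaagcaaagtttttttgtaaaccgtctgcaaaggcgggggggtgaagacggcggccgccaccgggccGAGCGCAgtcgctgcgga
Slc30a2 promoter, chr5:151843201-151843450, plus strand: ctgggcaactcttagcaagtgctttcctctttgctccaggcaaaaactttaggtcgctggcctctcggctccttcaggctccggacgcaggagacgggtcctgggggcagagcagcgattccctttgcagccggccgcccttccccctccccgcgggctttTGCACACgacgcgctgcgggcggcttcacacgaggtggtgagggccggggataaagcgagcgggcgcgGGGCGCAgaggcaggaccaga
The window of Mt1a (listed as Mt1 by RefSeq) held 6 matches and that of Mt2A 4, and those of Slc30a1 and Slc30a2 held 2 each. Slc30a2 has 2 annotated starts in the table, and the window of the one not shown held 0. An MRE was present in at least 1 window of each of these 4 genes, in 8 of the 15 matched immediate early genes that rose (53.3%), in 38.5% of the genes that rose, in 31.4% of the 35 matched genes that fell, and in 31.6% of the genes tested.

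The second set holds early genes with a full CRE (TGACGTCA) or with several copies of the CRE core (TGACG on either strand, which also lies within every full CRE), again in capitals.
Crem promoter, chr17:58984547-58984796, plus strand: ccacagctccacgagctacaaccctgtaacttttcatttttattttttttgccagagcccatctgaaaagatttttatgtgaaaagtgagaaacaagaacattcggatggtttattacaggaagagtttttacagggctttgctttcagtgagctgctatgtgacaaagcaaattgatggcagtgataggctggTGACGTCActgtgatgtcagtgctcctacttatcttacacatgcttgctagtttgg
Btg2 promoter, chr13:48087691-48087940, minus strand: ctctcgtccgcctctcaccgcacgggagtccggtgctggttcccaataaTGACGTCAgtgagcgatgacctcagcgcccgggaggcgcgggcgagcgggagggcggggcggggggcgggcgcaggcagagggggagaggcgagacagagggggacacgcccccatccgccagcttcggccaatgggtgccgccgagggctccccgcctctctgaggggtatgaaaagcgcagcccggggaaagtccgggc
Ier2 promoter, chr19:40399123-40399372, plus strand: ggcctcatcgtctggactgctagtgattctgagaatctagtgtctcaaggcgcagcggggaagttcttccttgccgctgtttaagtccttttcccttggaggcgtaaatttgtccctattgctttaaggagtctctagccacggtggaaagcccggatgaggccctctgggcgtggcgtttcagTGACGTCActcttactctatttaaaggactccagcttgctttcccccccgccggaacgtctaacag
Nr4a1 promoter, chr7:134259888-134260137, plus strand: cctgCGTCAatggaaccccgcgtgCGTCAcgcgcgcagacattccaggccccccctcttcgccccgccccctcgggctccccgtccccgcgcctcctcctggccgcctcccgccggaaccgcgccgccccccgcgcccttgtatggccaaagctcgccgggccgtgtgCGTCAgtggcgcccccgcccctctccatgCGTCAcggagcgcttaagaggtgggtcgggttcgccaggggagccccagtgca
The CRE began 56 bases before the start in Crem, 201 in Btg2 and 66 in Ier2. Crem has 3 annotated starts in the table, and the one shown is the first with a CRE. In Nr4a1 the capitals mark 4 CRE cores, all on the other strand, at 246, 226, 82 and 53 bases before the start. The CRE core was present in 11 of the 15 matched immediate early genes that rose and in 7 of the 10 matched feedback genes that rose. It was present in 47.1% of all matched genes that rose, in 28.1% of the genes tested, and in 20% of those that fell. A full CRE was present in 16 of 208 genes that rose (7.69%) and in 2.99% of the genes tested. The AP-1 motif TGANTCA was present in 6.25% and 4.92%, and the CArG box in 1.44% and 1.16%. These are matches of letters, given as a description without a test.

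The 6 libraries held 25.7 to 32.2 M counts in genes, within the range of all 21 (22.3 to 40.2 M). Levels are given as CPM, the counts of a gene per M counts in all genes after TMM scaling, and 3 counts correspond to 0.0881 to 0.131 CPM. Counts depend on transcript length, so levels are compared between libraries and not between genes. Of the 6, the 3 h control of preparation 1 and condition 2 of preparation 3 stood apart: reads that could not be given to a single gene were 2.03% and 2.32% (0.562% to 0.973% in the other 4), ribosomal Rn45s took 7.37% and 5.72% of counts (1.45% to 3.11%), and the 2 insulin genes took 12.7% and 21.1% (24.5% to 40.2%). One of these libraries belongs to each group. Their part in the results was examined only by leaving them out (72 genes passed) and by a term for libraries above 1.5% ambiguous reads (338 passed), beside 290 in the main fit.

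Among 12576 genes tested, 290 passed (2.31%) at an adjusted p below 0.05 in edgeR's quasi-likelihood test with Benjamini-Hochberg adjustment, 247 higher (1.96%) and 43 lower (0.342%) in condition 2. The share of 2.31% is the background for each count of list members that passed below. The median size was 1.16 on the log2 scale for the genes that rose and 0.98 for those that fell, and 157 and 20 of them changed by at least 2-fold. Direction was the same in 3 of 3 preparations for each of the 290. These genes were selected with the same libraries, so such agreement is favoured by the selection and is no independent support. All 3 libraries of condition 2 lay above all 3 of the control for 226 of the 247, and below for 37 of the 43, where 8.71% and 7.35% of all genes tested were separated in that way. An unadjusted p under 0.05 was reached by 1659 of the 12576 genes tested, which is the background for such counts in the lists below. With library size as the only scaling, 67 genes passed and 73.1% of them were higher, against 85.2%, and with DESeq2 587 passed and 71.4% were higher. Counts moved with single libraries: without condition 2 of preparation 1, 2 or 3, 118, 147 and 190 genes passed, and without the 3 h control of preparation 1, 2 or 3, 124, 321 and 183. Without all libraries of preparation 1, 7 genes passed, without those of preparation 3, 57 did, and without the 2 libraries that stood apart, 72 did (65 higher). Of 89 genes that passed and are named in the text, 41 passed in each of the 6 fits that leave out 1 of these libraries, and 5 in none.

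The disputed libraries were also set against groups whose names agree. Against 24 h GLT, 1072 genes passed in condition 2 (8.52% of those tested, 615 higher and 457 lower), and without preparation 1 or 3 these were 21 and 83. Against 3 h GLT with compound D, 62 passed (0.493%, 54 higher and 8 lower), and without preparation 1 or 3 these were 0 and 14. Without preparation 1, 400 of 12446 genes tested had an unadjusted p under 0.05, a share below the 0.05 that no difference would give. Log2 differences of condition 2 from 24 h GLT were 5.13 and 3.65 for the red cell genes Hba-a2 and Hba2, and each passed. For the endothelial genes Eng and Plvap they were 1.92 and 2.96, and each passed. From 3 h GLT with compound D the differences of these genes, in the same order, were 0.86, 0.55, 0.37 and 0.44, and none passed. Which name of condition 2 is right was not tested.

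**Figure D1:**
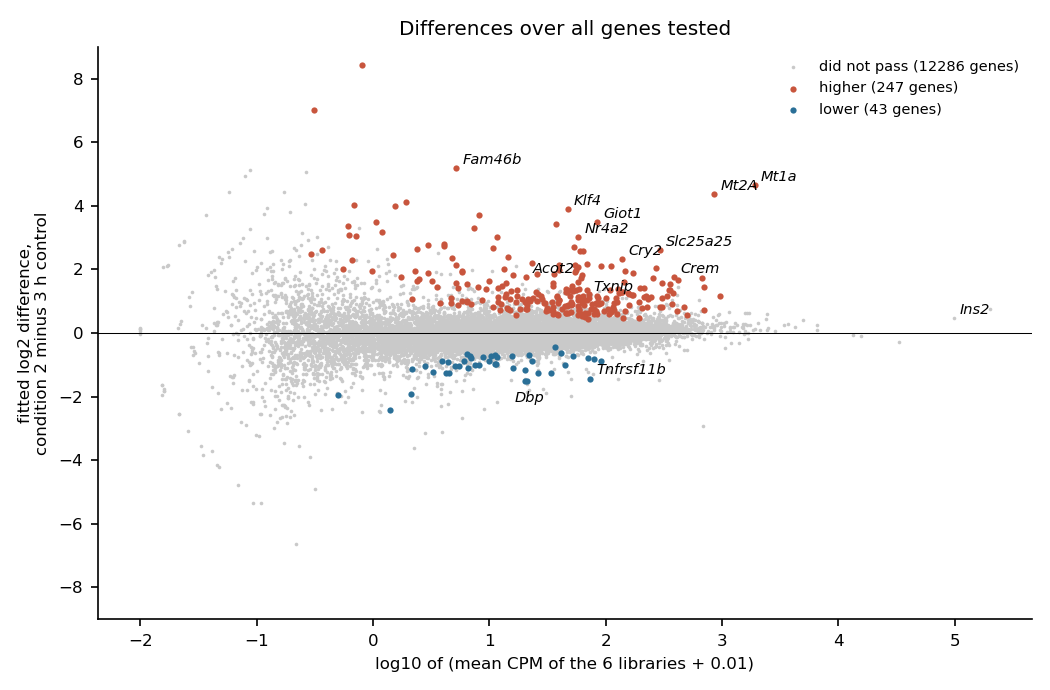
Fitted log2 difference of condition 2 minus 3 h control (vertical axis) against the log10 of the mean CPM of the 6 libraries plus 0.01 (horizontal axis), 1 point per gene, with the 247 genes that rose in red, the 43 that fell in blue and the 12286 that did not pass in grey. The metallothioneins Mt1a and Mt2A combine a high level with a large difference, and Ins2 and Txnip are labelled among the genes that did not pass.

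The immediate early transcription factors were the list with the largest share that passed. Of 29 members tested, 12 rose (41.4%, beside 2.31% of all genes tested) and 0 fell. The list median was 1.29 on the log2 scale, beside -0.02 over all genes tested. Klf4 (gene ID 114505), a zinc finger factor, stood at 3.39, 8.19 and 5.49 CPM in the 3 h control and 110.1, 68.6 and 85.8 CPM in condition 2, in the order of preparations 1, 2 and 3 used throughout (log2 difference 3.90, SE 0.39, adjusted p = 9.7e-05). Its lowest condition 2 library was more than 8 times its highest control.

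The 3 orphan nuclear receptors of the Nr4a family rose together. Nr4a2 had 14.4, 10.2 and 13.5 CPM in the 3 h control and 123, 89.1 and 96.3 CPM in condition 2 (log2 difference 3.02, SE 0.33, adjusted p = 1.7e-04). Nr4a3 had 3.17, 8.96 and 6.25 CPM against 80.7, 59.9 and 65.9 CPM (log2 difference 3.42, SE 0.57, adjusted p = 0.004). Nr4a1, whose promoter is shown above, had 13.8, 7.2 and 20.7 CPM against 52.4, 53.6 and 174 CPM (log2 difference 2.69, SE 0.43, adjusted p = 0.003). In each of the 3 receptors the groups were separate, and preparation 3 gave the highest Nr4a1 level in both groups.

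AP-1 subunits rose as well. Fos had 15.8, 8.37 and 33.3 CPM in the 3 h control and 93.1, 68.7 and 161 CPM in condition 2 (log2 difference 2.59, SE 0.53, adjusted p = 0.017). Fosl2 had 14.8, 14.3 and 40.9 CPM against 73.2, 56.9 and 131 CPM (log2 difference 1.97, SE 0.29, adjusted p = 0.0019). Both groups were separated for these genes, with preparation 3 highest in either. Fosl1 rose within each preparation (1.44, SE 0.30), but its highest control, in preparation 3, lay above the condition 2 libraries of the other two preparations. Of the Jun family, Jun (23.1, 35.4 and 91.8 CPM against 95.1, 74.6 and 208 CPM, 1.32 on the log2 scale, adjusted p = 0.11) and Junb (72, 142 and 608 CPM against 319.6, 352 and 967 CPM, 1.21, adjusted p = 0.15) did not pass, and for both genes the groups overlapped through the control of preparation 3.

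Factors present at low levels also passed. Egr4 had 0, 0.0366 and 0.528 CPM in the 3 h control and 1.7, 1.67 and 5.19 CPM in condition 2 (log2 difference 4.00, SE 0.78, adjusted p = 0.012), where 0 counts in preparation 1 allow up to 0.0942 CPM. Npas4, a factor induced by calcium entry in neurons, had 3 counts in each control library and 0.0942, 0.11 and 0.0881 CPM against 0.567, 0.583 and 2.14 CPM (log2 difference 3.37, SE 0.73, adjusted p = 0.024), so that its fitted difference rests on few control counts. Egr1, a classical early gene, did not pass, with 14.2, 11.5 and 35.6 CPM against 19.9, 11.5 and 96.7 CPM (adjusted p = 0.56). Ier2 (1.36), Csrnp1 (1.73) and Atf3 (1.36), a factor of the stress response, completed the 12 that rose. The number of this list that passed was 5 to 13 when 1 of the 6 libraries was left out, lowest without the 3 h control of preparation 1 or condition 2 of preparation 3, and it was 2 without both of these and 6 with library size only. Klf4, Nr4a1, Nr4a2, Nr4a3 and Fosl2 passed in each of the 6 fits. Fos and Npas4 passed in 2 of the 6, Egr4 in 4, and Fosl1, Ier2, Csrnp1 and Atf3 in 1.

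**Figure D2:**
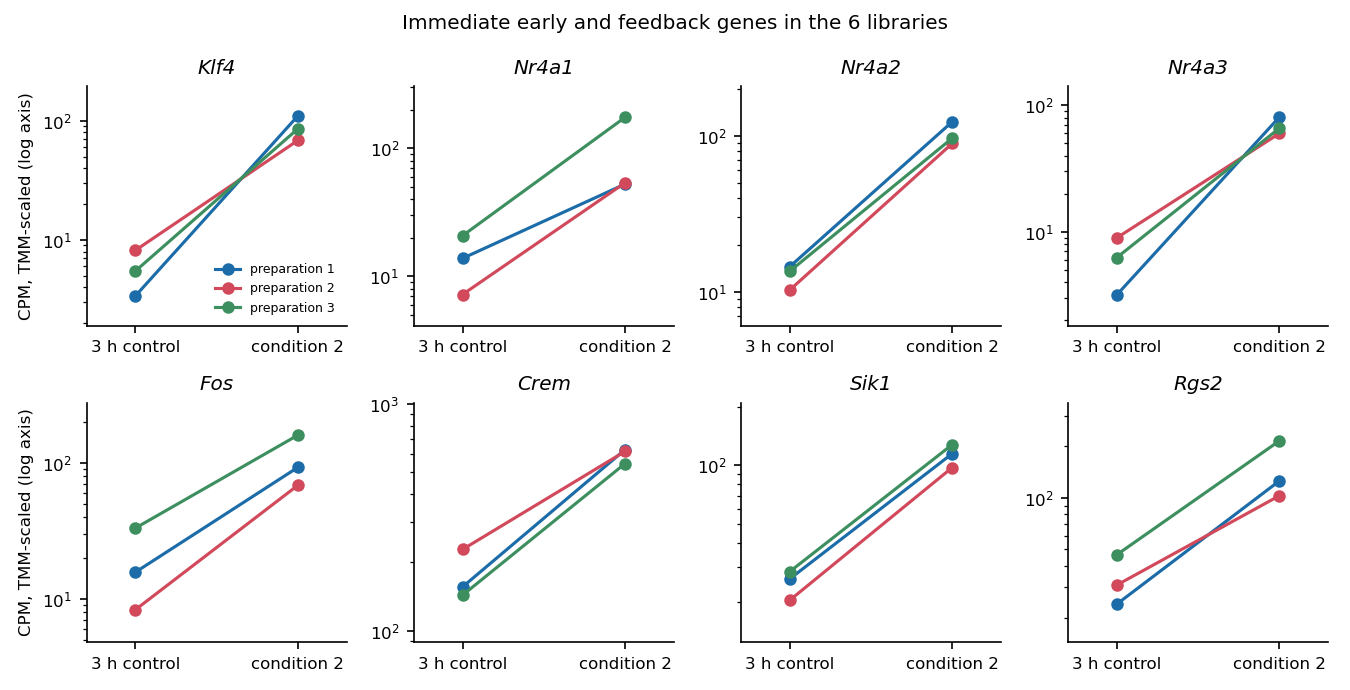
CPM (log axis) of 8 immediate early and feedback genes in the 3 h control and in condition 2, with 1 line per preparation. Every line rises, and the groups are separated for each of the 8 genes, for example 3.39 to 8.19 CPM against 68.6 to 110.1 CPM for Klf4. The 8 were picked among genes that passed. In their full lists, all condition 2 libraries lay above the control for 12 of 29 immediate early transcription factors and 12 of 22 cAMP and G protein feedback genes. Over all genes tested, this held for 8.71%.

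Of 23 other immediate early genes tested, 8 rose and 0 fell (34.8%, beside 2.31% of all genes tested, median 0.69). Nfil3, a repressor of the bZIP class that opposes Dbp at shared sites, had 14.3, 25.4 and 29.3 CPM in the 3 h control and 80.2, 91.1 and 84.3 CPM in condition 2 (log2 difference 1.91, SE 0.25, adjusted p = 6.2e-04). Gadd45a, a stress and growth arrest gene, had 49.8, 104 and 61.8 CPM against 209, 210 and 219 CPM (log2 difference 1.59, SE 0.24, adjusted p = 0.0022). The condition 2 libraries lay within a narrow band for both genes, and all were above the control. Btg2, an inhibitor of proliferation, had 199, 187 and 221 CPM against 377, 317 and 698 CPM (log2 difference 1.16, SE 0.23, adjusted p = 0.015), with the highest level in preparation 3. Homer1, a scaffold protein (1.49), Hbegf, a ligand of the EGF receptor (1.42), Plk3, a kinase (1.06), Ifrd1 (0.99) and Trib1, a pseudokinase (0.84), were the others that rose. With 1 library left out 3 to 6 of the list passed, with library size only 2 did, and without the 2 libraries that stood apart 1 did. Nfil3 and Gadd45a passed in each of these 6 fits, Btg2 and Ifrd1 in 3, Homer1 in 2, Hbegf and Plk3 in 1, and Trib1 in none.

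Mir132 encodes a microRNA that CREB is known to induce, and it was taken up after its values were seen. Reads of this total RNA library that fell in the gene gave 0.157, 0.0366 and 0.264 CPM in the 3 h control and 0.785, 1.08 and 4.01 CPM in condition 2 (log2 difference 3.49, SE 0.61, adjusted p = 0.0059), and the groups did not overlap. The control of preparation 2 lay below the level of 3 counts (0.11 CPM), so the fitted difference rests on few control counts. Reads in the gene measure longer transcripts across the locus and not the mature microRNA. Its mature arms, from RefSeq GRCr8, are shown with the seed, bases 2 to 8, in capitals.
rno-miR-132-5p, chr10:60522055-60522076, plus strand: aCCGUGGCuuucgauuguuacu
rno-miR-132-3p, chr10:60522091-60522112, plus strand: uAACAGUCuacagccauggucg

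Genes that feed back on cAMP and G protein signalling rose in 7 of 22 members tested (31.8%, beside 2.31% of all genes tested), with 0 lower and a median of 1.02. Rgs2, which switches off G proteins of the Gq class, had 24, 31 and 46.6 CPM in the 3 h control and 125, 103 and 214 CPM in condition 2 (log2 difference 2.09, SE 0.21, adjusted p = 9.7e-05). Sik1, a kinase that holds the CREB coactivators outside the nucleus, had 26.2, 20.4 and 28.5 CPM against 115, 97.4 and 128 CPM (log2 difference 2.18, SE 0.36, adjusted p = 0.0042). Crem, which gives rise to the repressor ICER from its CRE-bearing promoter, had 156, 228 and 143 CPM against 628, 617 and 545 CPM (log2 difference 1.76, SE 0.26, adjusted p = 0.002). For these 3 genes every condition 2 library was at least 2-fold above the control of its own preparation.

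The list also held Irs2, the insulin receptor substrate that CREB regulates in islets, with 229, 196 and 177 CPM in the 3 h control and 679, 593 and 649 CPM in condition 2 (log2 difference 1.67, SE 0.23, adjusted p = 7.9e-04). Gem, a small GTPase that restrains calcium channels, had 184, 145 and 127 CPM against 519.7, 503 and 342 CPM (log2 difference 1.57, SE 0.20, adjusted p = 5.6e-04). Rasd1, a Ras-like G protein regulator, had 27.3, 31.5 and 26.4 CPM against 78.3, 69.8 and 111 CPM (log2 difference 1.61, SE 0.29, adjusted p = 0.0066), and Per1 is given with the clock genes. All of these groups were separate. Ppargc1a, a coactivator of mitochondrial and PPAR target genes, had 7.03, 5.45 and 5.25 CPM against 30.5, 15.5 and 37.5 CPM and did not pass (2.10, adjusted p = 0.07). With 1 library left out, Rgs2, Sik1, Crem, Irs2 and Gem passed in each of the 6 fits, Rasd1 in 5 and Per1 in 4. In this list 6 to 8 members passed in these fits and 4 either without the 2 that stood apart or with library size only.

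Among MAP kinase phosphatases and growth factor feedback inhibitors, 5 of 20 members rose and 0 fell (25%, beside 2.31% of all genes tested, median 0.62). Errfi1, an inhibitor of the EGF receptor, had 196, 245 and 516 CPM in the 3 h control and 936, 803 and 1324 CPM in condition 2 (log2 difference 1.74, SE 0.24, adjusted p = 8.3e-04). The ERK phosphatases Dusp6 (13.5, 12.5 and 18.6 CPM against 28.5, 28.2 and 32.6 CPM) and Dusp5 (35.4, 24.5 and 59.3 CPM against 78.9, 63.5 and 120.5 CPM) rose by 1.02 and 1.17 on the log2 scale. Spry2 (0.78) and Spry4 (0.61), inhibitors of receptor tyrosine kinase signalling, rose least. Dusp1 had 14.1, 21.1 and 43.3 CPM against 45, 44.3 and 97.1 CPM and did not pass (adjusted p = 0.08), although its groups did not overlap. With 1 library left out 1 to 3 of the list passed, Errfi1 in each of the 6 fits, Dusp6 in 3, Dusp5 in 1, and Spry2 and Spry4 in none. Of the list, 1 passed with library size only and 1 without the 2 libraries that stood apart.

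Metallothioneins had the largest log2 rises after Fam46b among genes that passed with at least 5 CPM in 1 group. Mt1a (gene ID 24567) had 32.6, 231 and 150.5 CPM in the 3 h control and 4218, 4638 and 2196 CPM in condition 2 (log2 difference 4.66, SE 0.87, adjusted p = 0.0092). Mt2A (gene ID 689415) had 20.6, 86.8 and 147 CPM against 1422, 1988 and 1499 CPM (log2 difference 4.37, SE 1.03, adjusted p = 0.038). The lowest condition 2 library was more than 9 times the highest control for either gene, while the control itself ranged about 7-fold, lowest in preparation 1. The 2 genes are close paralogs, and how the authors' counting divided shared reads is not given in the sources used here, so their separate levels are uncertain.

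Slc30a1, the zinc exporter of the plasma membrane, had 34.2, 34.7 and 13.1 CPM in the 3 h control and 109, 87.2 and 96.1 CPM in condition 2 (log2 difference 1.84, SE 0.42, adjusted p = 0.03). Slc30a2, a vesicular zinc transporter, was at 0 counts in all 3 controls and at 0.567, 1.04 and 0.207 CPM in condition 2, at least 6.22-fold higher when 3 counts per control library are taken as the floor (adjusted p = 0.017). Slc30a8, the transporter that loads zinc into insulin granules, had 781, 463 and 536 CPM against 355, 409 and 445 CPM and did not pass (-0.54, adjusted p = 0.33). In all, 4 of 16 members of the metallothionein and zinc transporter list rose and 0 fell (25%, beside 2.31% of all genes tested), with a median of 0.20. Mt1a passed in each fit with 1 library left out, Slc30a2 in 2 of the 6 and Slc30a1 in 1. Mt2A passed in none of them, with adjusted p up to 0.17 and log2 differences of 3.83 or more. With library size only, Mt1a was the 1 member of the list that passed, and without the 2 libraries that stood apart 0 passed, where Mt1a had a log2 difference of 4.27 (adjusted p = 0.076).

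Genes that respond to glucose through the factor ChREBP (Mlxipl) did not pass in any of 20 members tested (median 0.01, or -0.02 with genes at 0 in 1 group set to their floor), and 0 passed with any 1 library left out. In this list 6 had an unadjusted p under 0.05, and 5 passed with DESeq2. Txnip, a strongly glucose-induced gene that binds thioredoxin, had 33.9, 50.3 and 34.4 CPM in the 3 h control and 137, 108 and 47.3 CPM in condition 2 (log2 difference 1.20, SE 0.34, adjusted p = 0.088). The difference was 2.02, 1.10 and 0.46 in the 3 preparations, and the preparation 3 library of condition 2 lay below the highest control. In 3 h GLT with compound D its level was 1117, 922 and 265 CPM, above every condition 2 library, and in 24 h GLT 76.5, 90.9 and 46.9 CPM.

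Of 33 genes of fatty acid oxidation and PPAR targets, 3 rose and 0 fell (9.09%, beside 2.31% of all genes tested, median 0.18). Cpt1a, the gatekeeper of fatty acid entry into mitochondria, had 24.6, 29.6 and 24.5 CPM in the 3 h control and 54.9, 52.7 and 53.8 CPM in condition 2 (log2 difference 1.04, SE 0.16, adjusted p = 0.0021). Acot2, a mitochondrial acyl-CoA thioesterase, had 8.83, 12 and 7.37 CPM against 34.6, 39.1 and 22.9 CPM (log2 difference 1.77, SE 0.22, adjusted p = 4.4e-04), and its near-identical neighbour Acot1 makes the split of reads uncertain. Angptl4, a PPAR-induced inhibitor of lipoprotein lipase, had 0.188, 0.95 and 4.02 CPM against 5.24, 4.83 and 13.3 CPM (log2 difference 2.36, SE 0.55, adjusted p = 0.036). The groups were separate for Cpt1a and Acot2. The Angptl4 control spread from 0.188 CPM in preparation 1 to 4.02 CPM in preparation 3, and Angptl4 passed in 1 of the 6 fits with 1 library left out. Of 19 genes of fatty acid synthesis, Dgat2, which makes triglyceride, was the one that rose (5.26% of the list, log2 difference 1.14, SE 0.28). Dgat2 too passed in 1 of 6 fits, and it did not pass with library size only or without the 2 libraries that stood apart. None of 27 cholesterol genes passed (median 0.23), while 5 had an unadjusted p under 0.05 and 2 passed with DESeq2.

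Clock genes moved in both directions, with 4 of 17 higher and 1 lower (29.4%, beside 2.31% of all genes tested, median -0.09). Cry2, a repressor of the core clock, had 51.2, 46.2 and 37.8 CPM in the 3 h control and 246, 188 and 262 CPM in condition 2 (log2 difference 2.33, SE 0.37, adjusted p = 0.0029). Per1, another repressor and a CREB target, had 32.7, 14.7 and 36.4 CPM against 58.1, 63.5 and 89.7 CPM (log2 difference 1.35, SE 0.27, adjusted p = 0.013). Dbp, a clock output factor, had 28.6, 30.9 and 34.7 CPM against 9.6, 9.7 and 13.3 CPM and fell (log2 difference -1.52, SE 0.26, adjusted p = 0.005). Every condition 2 library was above the control for the first 2 genes and below it for Dbp. Nfil3, which acts against Dbp, is the third gene that rose, and Rorb (2.15, SE 0.51) the fourth. Without 1 library 3 to 6 members passed, Cry2, Dbp and Nfil3 in each fit, Per1 in 4 of 6 and Rorb in 2. With library size only 2 passed, and without the 2 libraries that stood apart 3 did.

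**Figure D3:**
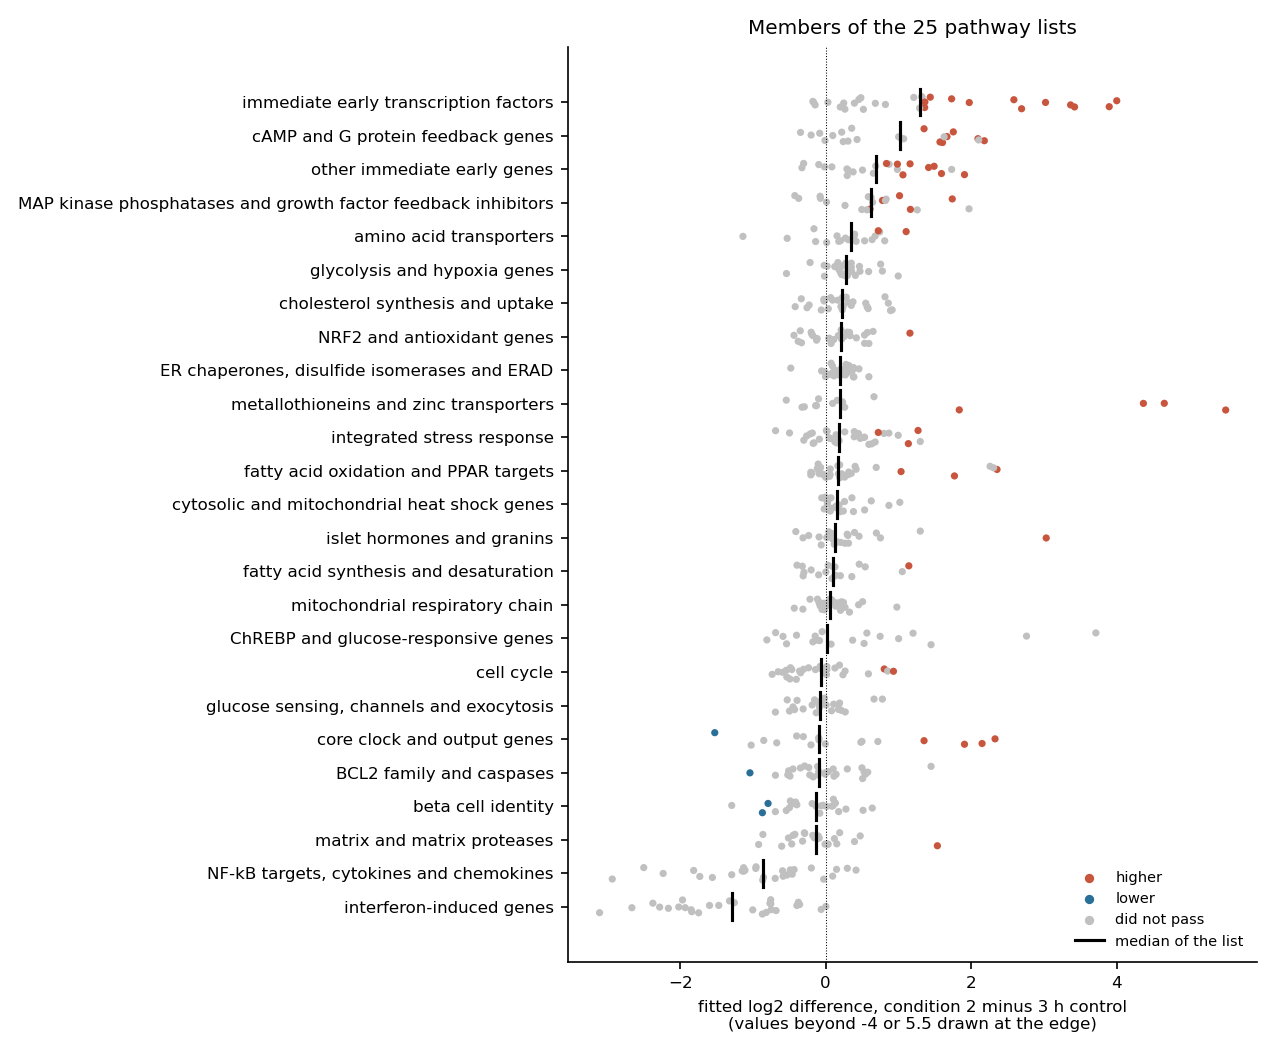
Fitted log2 difference of condition 2 minus 3 h control (horizontal axis) for the members tested of 25 gene lists (rows, ordered by median, black bar), with members that rose in red, those that fell in blue and the rest in grey. The immediate early transcription factors lie at the top with a median of 1.29, and the interferon-induced genes at the bottom with -1.29 and no member that passed.

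Transcription factors of endocrine cells fell in 2 of 25 members of the beta cell identity list, with 0 higher (8%, beside 2.31% of all genes tested, median -0.13). Rfx6, a factor of endocrine development, had 115, 77.2 and 74.9 CPM in the 3 h control and 54.9, 54.6 and 43.6 CPM in condition 2 (log2 difference -0.79, SE 0.15, adjusted p = 0.0098). Hnf4a, a gene of monogenic diabetes, had 37.5, 29.5 and 22.3 CPM against 19, 15.4 and 14.4 CPM (log2 difference -0.87, SE 0.18, adjusted p = 0.016). The groups were separate for both genes, and the control of preparation 1, one of the libraries that stood apart, was the highest. With 1 library left out, either gene passed in 3 of the 6 fits, and 0 to 3 members of the list passed. Neither passed with library size only (adjusted p = 0.083 for Rfx6 and 0.079 for Hnf4a) or without the 2 libraries that stood apart, where the log2 differences were -0.50 and -0.59 (adjusted p = 0.30 and 0.40).

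Hormone genes spread widely between libraries and did not pass. Ins1 had 56381, 239838 and 141735 CPM in the 3 h control and 339917, 287442 and 128611 CPM in condition 2 (adjusted p = 0.71), and Ins2 45772, 99862 and 90184 CPM against 155986, 120473 and 73800.3 CPM (adjusted p = 0.83). The control of preparation 1, one of the libraries that stood apart, was the lowest for both insulin genes. Gcg, for glucagon, had 13623, 16717 and 17093 CPM against 18142, 17984 and 10854 CPM, with a log2 difference of -0.09, SE 0.23. Sst (0.21, SE 0.49) and Ppy (-0.31, SE 0.60) had wide errors. In bulk islets, fewer cells of a type and less RNA per cell cannot be told apart. Of 25 hormone and granin genes, 1 rose (4%, near the 2.31% of all genes tested). This was Tac1, the substance P precursor, with 1.19, 3.36 and 3.55 CPM against 15.9, 25.3 and 20.3 CPM (log2 difference 3.03, SE 0.40, adjusted p = 6.6e-04). It passed in each fit with 1 library left out. Genes of glucose sensing, channels and exocytosis did not pass in any of 25 (median -0.08), with 4 at an unadjusted p under 0.05, 2 in DESeq2 and 2 without the 3 h control of preparation 2.

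In the integrated stress response list, 3 of 35 members rose and 0 fell (8.57%, beside 2.31% of all genes tested, median 0.19). Ppp1r15a, which restarts translation, had 48.1, 57.4 and 129 CPM in the 3 h control and 163, 137 and 244 CPM in condition 2 (log2 difference 1.27, SE 0.23, adjusted p = 0.0084), while Chac1 (1.14, SE 0.22) and the amino acid transporter Slc7a5 (0.72, SE 0.13) also rose. With 1 library left out Ppp1r15a and Slc7a5 passed in 5 of 6 fits and Chac1 in 4, while 0 of the list passed with library size only and 0 without the 2 libraries that stood apart. Endoplasmic reticulum chaperones and degradation genes passed in 0 of 28 (median 0.20), and heat shock genes in 0 of 23 (median 0.15), with 3 and 2 members at an unadjusted p under 0.05 and 0 and 0 in DESeq2. Small differences above 0 were present in 24 of 28 and 19 of 23 members, beside 5973 of 12576 genes tested. All condition 2 libraries lay above the control for 6 and 5 members, beside 8.71% of all genes tested. The chaperone Hspa5 had 3527, 4001 and 4334 CPM against 4417, 4797 and 4386 CPM (0.20, adjusted p = 0.61), a difference of under 1.2-fold between group means. Of 29 NRF2 and antioxidant genes, Srxn1 was the one that rose (3.45%, near the 2.31% of all genes tested, log2 difference 1.16, SE 0.23). Srxn1 passed in 3 of the 6 fits, but not with library size only or without the 2 libraries that stood apart. Among 27 BCL2 family and caspase genes, Casp8 was the one called (3.70%, near the 2.31% of all genes tested), lower in condition 2 (-1.04, SE 0.25). Casp8 passed in none of the fits with 1 library left out.

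Interferon-induced genes had a list median of -1.29 with 0 of 28 that passed, and this median came from preparation 3: the medians were -0.07, -0.04 and -2.48 in preparations 1, 2 and 3. The NF-kB, cytokine and chemokine list had -0.86 with 0 of 28, and 0.00, -0.09 and -1.16 by preparation. An unadjusted p under 0.05 was reached by 10 of the former and 2 of the latter, and 0 of either passed with DESeq2. Cxcl10, a chemokine induced by interferon, had 15.7, 8.04 and 3828 CPM in the 3 h control and 8.29, 5.12 and 284 CPM in condition 2 (-2.93, adjusted p = 0.4). The control of preparation 3 stood far above the other 5 libraries, and without it the fitted difference of Cxcl10 was 0.46. No batch is given in the labels beyond the preparation.

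Glycolysis and hypoxia genes (0 of 27, median 0.28) and genes of the respiratory chain (0 of 30, median 0.06) did not pass, with 3 and 1 at an unadjusted p under 0.05 and 1 and 0 in DESeq2. Differences above 0 were present in 23 of 27 and 19 of 30 members, beside 5973 of 12576 genes tested. Ccnd1 (0.81, SE 0.15) and Pcna (0.93, SE 0.18) rose among 30 cell cycle genes (6.67%, beside 2.31% of all genes tested). Slc7a5 and Slc1a4 (1.11, SE 0.28) rose among 20 amino acid transporters (10%, median 0.35). Plat, tissue plasminogen activator, had 126, 140.4 and 281 CPM in the 3 h control and 399, 372 and 827 CPM in condition 2 (log2 difference 1.54, SE 0.24, adjusted p = 0.0027). It was the one of 24 matrix genes that rose (4.17%, near the 2.31% of all genes tested). Plat passed in each fit with 1 library left out, Pcna in 4 of the 6, Ccnd1 in 3 and Slc1a4 in 1. With library size only, and without the 2 libraries that stood apart, 0 members of the cell cycle, amino acid transporter and matrix lists passed.

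The 15 largest rises, taken among genes of at least 5 CPM in 1 group, also held genes outside the lists. Nmu, the peptide neuromedin U, had 0.848, 1.28 and 0.851 CPM in the 3 h control and 7.42, 9.62 and 4.39 CPM in condition 2 (log2 difference 2.79, SE 0.39, adjusted p = 9.5e-04). Sstr1, a somatostatin receptor, had 0.597, 2.92 and 0.294 CPM against 20.8, 18.5 and 5.74 CPM (log2 difference 3.71, SE 0.59, adjusted p = 0.0031). Cntfr, the receptor of ciliary neurotrophic factor, had 2.14, 3.98 and 2.41 CPM against 24.6, 21.6 and 10.2 CPM (log2 difference 2.67, SE 0.33, adjusted p = 4.4e-04). For these 3 genes preparation 3 gave the lowest condition 2 level, which still exceeded every control. The ligands Wnt9b (1.16, 1.9 and 0.822 CPM against 17.8, 15.5 and 7.02 CPM, log2 difference 3.32, SE 0.32, adjusted p = 9.4e-05) and Bmp2 (0.565, 0.621 and 2.23 CPM against 6.02, 4.96 and 9.79 CPM, log2 difference 2.73, SE 0.49, adjusted p = 0.0076) rose too. Bmp2 passed in 5 of the 6 fits with 1 library left out, and Nmu, Sstr1, Cntfr and Wnt9b in each.

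The largest fitted rise in this set was that of Fam46b, a poly(A) polymerase of the FAM46 family, with 0.0942, 0.439 and 0.264 CPM in the 3 h control and 12.6, 6.5 and 11.3 CPM in condition 2 (log2 difference 5.18, SE 0.69, adjusted p = 6.9e-04). Its preparation 1 control lay at the level of 3 counts, so the size of the fitted difference rests on few control counts. Giot1, a zinc finger repressor, had 10.3, 13.5 and 18.6 CPM against 169, 164 and 133 CPM (log2 difference 3.48, SE 0.33, adjusted p = 9.4e-05). Gys2, the liver form of glycogen synthase, had 0.597, 1.46 and 0.294 CPM against 4.41, 7.45 and 3.56 CPM (log2 difference 2.77, SE 0.39, adjusted p = 0.0012). These genes showed no overlap between the groups and passed in each fit with 1 library left out.

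Genes that passed under all 21 alternative settings numbered 5, namely Klf4, Nfil3, Slc25a25, Dos and Emd. The last 3 are outside the naming rule and were chosen after their values were seen. Slc25a25, a calcium-regulated carrier of ATP into mitochondria, had 92.9, 79.4 and 72.6 CPM in the 3 h control and 643, 502 and 367 CPM in condition 2 (log2 difference 2.62, SE 0.23, adjusted p = 7.8e-05). Emd, the nuclear envelope protein emerin, had 29.3, 62.1 and 36.5 CPM against 213, 183 and 145 CPM (log2 difference 2.10, SE 0.22, adjusted p = 1.6e-04). Dos had 52, 72.1 and 58.9 CPM against 214, 235 and 251 CPM (log2 difference 1.94, SE 0.14, adjusted p = 7.3e-06), with the lowest adjusted p of the named genes. The groups were separate in each of these genes.

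Falls were smaller than rises. Besides Dbp, they included Tnfrsf11b, the decoy receptor osteoprotegerin, with 121, 63.1 and 136 CPM in the 3 h control and 31.9, 28.2 and 59.5 CPM in condition 2 (log2 difference -1.43, SE 0.29, adjusted p = 0.015). Fgfr2, a growth factor receptor (-1.26, SE 0.26), Vsnl1, a neuronal calcium sensor (-1.25, SE 0.23), and Otub2, a deubiquitinase (-1.24, SE 0.21), overlapped between the groups but fell within each preparation. Kcnn2, a calcium-activated potassium channel, had 8.35, 8.01 and 10.3 CPM against 3.93, 4.33 and 4.22 CPM (log2 difference -1.10, SE 0.20, adjusted p = 0.0078). Akr1c19, an aldo-keto reductase (-1.17, SE 0.18), Pars2, the mitochondrial prolyl-tRNA synthetase (-1.24, SE 0.23), and Fchsd2 (58.1, 57.8 and 64.1 CPM against 27.3, 30.6 and 32.2 CPM) were separate between the groups. Akr1c19 and Otub2 passed in each fit with 1 library left out, Kcnn2 in 5 of the 6, Fgfr2, Vsnl1 and Pars2 in 4, Fchsd2 in 3 and Tnfrsf11b in 2. Another 5 of the largest falls had log2 differences of -1.10 to -1.02.

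Markers of the cell types that islets could hold were read in the same way. No marker of endothelial, red, macrophage, lymphocyte, stellate, acinar, ductal, Schwann, delta, PP or beta cells passed, beside 2.31% of all genes tested. The list medians were 0.64 for red cells, -0.54 for acinar cells and -0.44 for lymphocytes, and -0.31 to 0.29 for the other 9 lists. With genes at 0 in 1 group set to their floor, the lymphocyte median was -0.10. Summed marker levels overlapped between the groups for each of the 12 lists: for acinar cells 9.26 to 27 CPM in the control and 10.1 to 13.3 CPM in condition 2, and for macrophages 63.7 to 135.1 and 89.1 to 94.4 CPM. No listed marker was at 0 in all 6 libraries. Of 9 alpha cell markers, Irx1 rose (1.39, SE 0.28, and it passed in 2 of the 6 fits) while Gcg did not pass. Beta cell markers, the insulin genes among them, summed to 119215 to 355762 CPM in the control and 218093 to 513076 CPM in condition 2, so the islet label and the markers go together.

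Levels of these genes were also read in the groups whose names agree. Klf4 was at 12.9, 8.5 and 15.1 CPM in 24 h GLT, 12.1, 10.5 and 27.9 CPM in 3 h GLT with compound D and 59.8 CPM in the library of 3 h GLT with compound E, where condition 2 of the same preparation had 68.6 CPM. Mt1a was at 896, 529.7 and 461 CPM, 125, 328 and 266 CPM and 4773 CPM in these groups. For both genes the compound E library lay beside condition 2 of its preparation, whereas 24 h GLT and 3 h GLT with compound D lay below every condition 2 library.

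Other genes followed other orders. Cry2 was at 57.9, 67.7 and 97.2 CPM in 24 h GLT, 219.5, 86.5 and 176 CPM in 3 h GLT with compound D and 163 CPM with compound E. Each of these libraries, those of 24 h GLT included, exceeded every 3 h control. Acot2 was at 54.2, 40.1 and 48.7 CPM in 24 h GLT, 10.3, 14.6 and 10.3 CPM with compound D at 3 h and 31.8 CPM with compound E. Compound D libraries overlapped the control for Acot2 and the others did not.

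**Figure D4:**
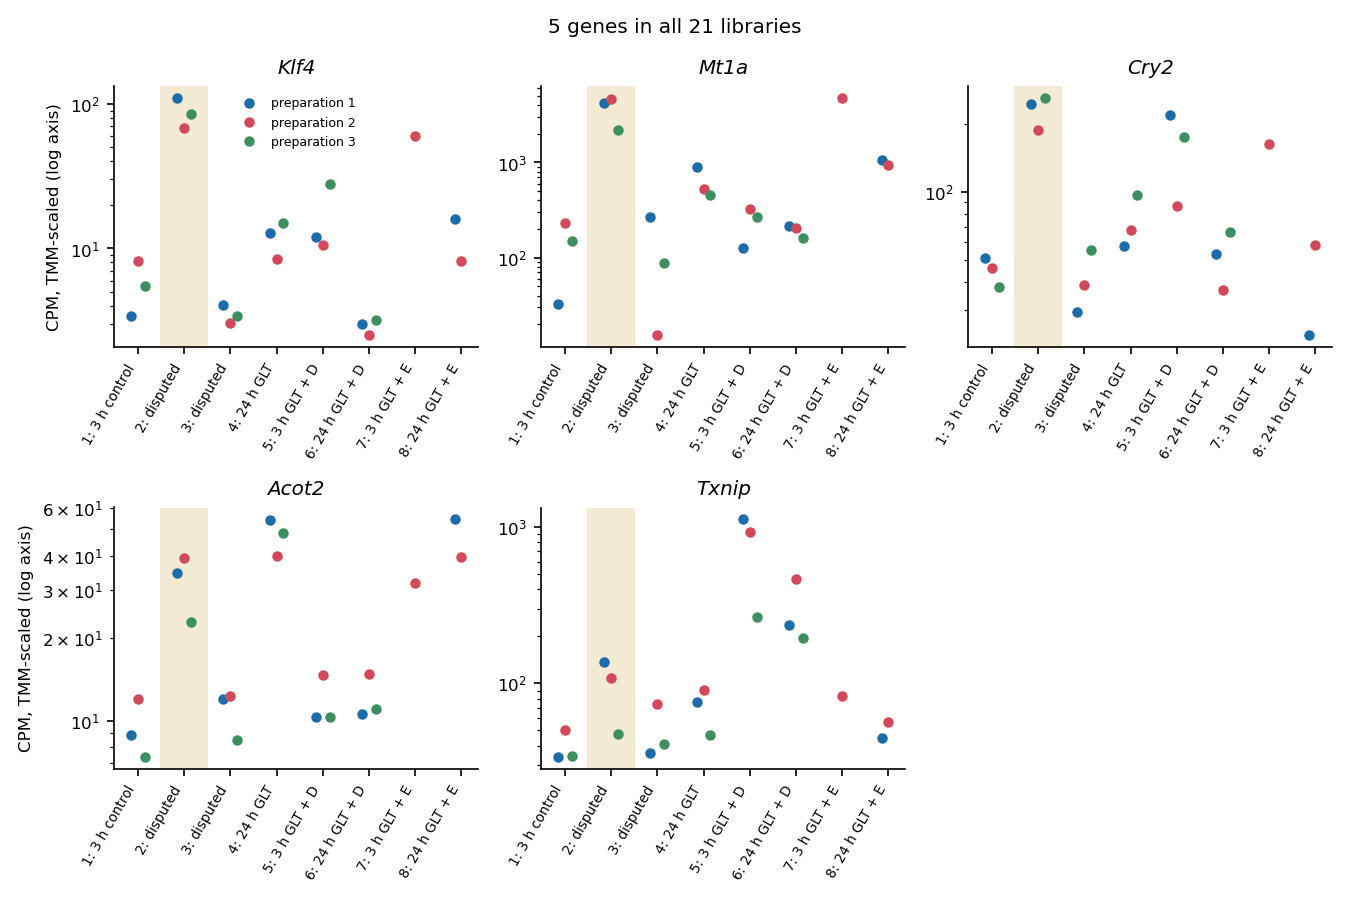
CPM (log axis) of 5 genes in all 21 libraries, by condition and coloured by preparation, with condition 2 shaded and the conditions whose names differ between sheet and records marked as disputed. For Klf4 and Mt1a the library of 3 h GLT with compound E (preparation 2) lies beside condition 2, and for Txnip the highest library of each preparation is that of 3 h GLT with compound D.

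Preparations were also read out of sample, choosing genes without all libraries of a preparation and reading their difference in that preparation. Without preparation 1, 7 genes passed (Cry2, Dos, Emd, Klf4, Nfil3, Nmu and Slc25a25), and 7 of 7 had the same direction in preparation 1, with a median of 2.79. Without preparation 3, 57 passed, and 57 of 57 had the same direction there (median 1.52). Without preparation 2, 356 passed, 312 of them higher. In preparation 2, 326 of the 356 had the same direction in condition 2 (median 0.73 in that direction, 116 at 2-fold or more). In the 3 h GLT library with compound E of that preparation, set against the same 3 h control, 328 had the same direction (median 0.65, 106 at 2-fold or more). Both readings subtract the same control library, so they are not independent. Other groups of preparation 2 were not read in this way, so the values do not show whether the agreement is particular to compound E. Over all genes tested, 48.3% to 51% of differences were above 0 in these readings.

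**Figure D5:**
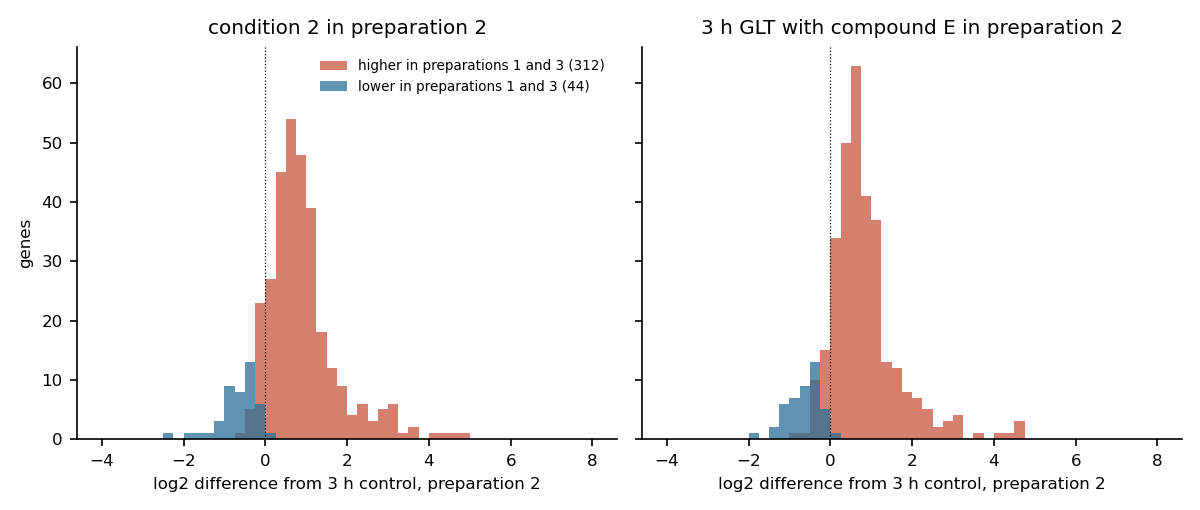
Log2 differences from the 3 h control within preparation 2 (horizontal axis) for the 312 genes higher (red) and 44 lower (blue) in preparations 1 and 3, as numbers of genes per bin (vertical axis), for condition 2 (left) and for 3 h GLT with compound E (right). In both panels red bars lie mostly above 0 and blue bars mostly below. Both panels subtract the same control library and are not independent.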

How the data were processed

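The deposited values are raw counts per gene, made by the authors with HTSeq from paired-end Illumina reads of total RNA, per the labels' protocols, after mapping to rn5 (TopHat2 2.0.3, Bowtie2 2.0.0). The annotation and the strand setting are not given in the sources used here, so overlapping and antisense genes cannot be told apart. The table holds 17025 genes and 5 entries without a gene, which were left out of totals and tests. In the 6 libraries, reads outside genes made up 13.9% to 18.7%, multiply aligned reads 5.24% to 8.51% and those overlapping several genes 0.562% to 2.32% (called ambiguous).

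Counts were fitted with edgeR 4.0.16 (R 4.3.3): all 21 libraries, condition and preparation as terms, TMM scaling, filterByExpr, a 2-sided quasi-likelihood test and Benjamini-Hochberg adjustment over 12576 genes. A gene passed at an adjusted p below 0.05. Differences are on the log2 scale from that fit, with their standard errors (SE), and differences within a preparation use log2 CPM with a prior count of 2. The preparation is a block because the labels say that each pool was divided over the groups. Deviations of the 2 groups' libraries correlated by 0.40, 0.71 and 0.67 in preparations 1, 2 and 3 (8712 genes). Libraries of a group differed beyond counting error (lowest chi-square per degree of freedom 29.0). Floors cover counting error only.

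Genes named are the 15 largest rises and 15 largest falls among genes that passed with the same direction in 3 preparations and at least 5 CPM in 1 group, up to 6 members that passed per list by adjusted p (otherwise up to 2 of the most abundant), the hormones and Txnip. Others are said to be chosen after their values were seen, or are list members given for completeness. The comparison, lists and named genes were chosen with earlier results of these data known. One gene is not reported here and was left out of the lists. The code was tested on simulated data. Motifs were searched on both strands of the 250 bases before each start in the RefSeq GRCr8 promoter table, matched by gene ID, and a gene counts as holding a motif when any of its starts does. Alternatives were other scaling (DESeq2 size factors, library size), filters, no block, DESeq2 1.42.0, voom with limma 3.58.1, the 6 libraries alone, and leaving out libraries. Those on reads that are ambiguous, and leaving out condition 3 of preparation 2, were added after seeing the data.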

Additional observations from a re-analysis of the deposited data

How the results depend on the processing

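Tests rest on 3 libraries a group, whose spread exceeded counting error, and genes under about 0.1 CPM lie at the floor of 3 counts. Of 89 named genes that passed, 0 reversed under any of the 21 alternatives. The alternatives use the libraries that selected these genes, so few reversals could arise and their absence is no independent support. The count of 290 was 290 with DESeq2 size factors in edgeR, 262 without a filter, 274 at a mean of at least 5 CPM, 331 with the preparation as a random effect, 429 with the 6 libraries alone (67 lower against 43), 338 with a term for ambiguous reads and 313 without condition 3 of preparation 2. With library size only, 67 passed (49 higher, 18 lower), with a median of -0.29 over all genes and 73.1% higher against 85.2%. Without the replicate block, 169 passed (151 higher, 18 lower). With DESeq2, 587 passed (419 higher, 168 lower). Against 24 h GLT and 3 h GLT with compound D, 633 and 14 passed with library size only, 604 and 33 without the replicate block, and 163 passed against the latter with DESeq2. Without the 2 libraries above 1.5% ambiguous reads, 72 passed (65 higher, 7 lower).

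Leaving out replicates gave 7 to 379 genes that passed (7 to 312 higher, 0 to 76 lower), lowest without preparation 1, where 825 of 12446 genes tested had an unadjusted p under 0.05. Against 24 h GLT it gave 21 to 1222 and against 3 h GLT with compound D 0 to 45 genes. The 0 came without preparation 1, where 400 of 12446 genes tested had an unadjusted p under 0.05, a share below 0.05. With the block left out, the immediate early transcription factors that passed went from 12 to 5, and the other early genes from 8 to 4.

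Genes that did not pass and changed sign were Hspa5 (-0.065 with library size only), Ins2 (-0.11 without preparation 1), Sst (-0.24 without preparation 1), Gcg (0.25 without preparation 3) and Ppy (0.59 without preparation 3, 0.0091 with a random preparation, 0.0012 with the 6 libraries alone, 0.041 with a term for ambiguous reads). Without the 3 h control of preparation 1 Sst gave -0.18, without that of preparation 2 -0.040, and without that of preparation 3 Gcg gave 0.27, Ppy 0.90 and Cxcl10 0.46. Egr1 gave -0.054 without condition 2 of preparation 3. Without the 2 libraries of high ambiguous share, Ins2 gave -0.079, Sst -0.28 and Egr1 -0.35. With replicates left out, the ranges were -0.11 to 1.25 for Ins2, -0.33 to 0.27 for Gcg, -0.24 to 1.03 for Sst, -0.81 to 0.90 for Ppy, -0.054 to 1.15 for Egr1 and -3.86 to 0.46 for Cxcl10. The cause was not tested.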

Other observations

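Further genes with large or even differences, chosen after their values were seen, are given here as single genes and not as groups. Adra2a, the adrenergic receptor that restrains insulin release, had 202, 167 and 209 CPM in the 3 h control and 602, 585 and 335 CPM in condition 2 (log2 difference 1.37, SE 0.24, adjusted p = 0.0059). Sstr2, another somatostatin receptor, had 4.33, 14.8 and 7.84 CPM against 21, 21.4 and 23 CPM (log2 difference 1.33, SE 0.28, adjusted p = 0.017). Grin1, a subunit of the NMDA receptor, had 24.4, 23.9 and 22 CPM against 55.4, 53.9 and 49.5 CPM (log2 difference 1.18, SE 0.13, adjusted p = 2.7e-04). Qrfpr, a peptide receptor, was at 0 counts in all 3 controls and at 1.92, 2.04 and 0.761 CPM in condition 2, at least 16.2-fold higher with 3 counts per control library as the floor. Igf1r (62.7, 68.9 and 48.9 CPM against 169, 148 and 151 CPM, log2 difference 1.36, SE 0.27, adjusted p = 0.013) and Egfr (16, 15.5 and 11.9 CPM against 43.7, 30.6 and 33.4 CPM, log2 difference 1.31, SE 0.26, adjusted p = 0.012) rose as well, whereas the growth factor receptor Fgfr2 fell. No overlap was present between the groups in the genes of this paragraph that rose. Adra2a, Grin1 and Qrfpr passed in each fit with 1 of the 6 libraries left out, Sstr2 and Egfr in 3 of the 6, and Igf1r in 2.

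Gls2, a mitochondrial glutaminase, had 14.7, 25.9 and 8.95 CPM in the 3 h control and 69.1, 61.9 and 59.3 CPM in condition 2 (log2 difference 2.00, SE 0.25, adjusted p = 4.4e-04). Ldhb, a lactate dehydrogenase subunit, had 13.3, 31.5 and 17.3 CPM against 90.6, 99.2 and 74.1 CPM (log2 difference 2.14, SE 0.27, adjusted p = 4.4e-04). Coq10b, a coenzyme Q binding protein, had 103, 152 and 92.3 CPM against 401, 395 and 373 CPM (log2 difference 1.75, SE 0.21, adjusted p = 3.9e-04). Gad1, which makes GABA, had 553, 505 and 710.3 CPM against 1156, 1310.2 and 1513 CPM (log2 difference 1.18, SE 0.25, adjusted p = 0.018), and Ass1, of arginine synthesis, had 104, 157 and 85.9 CPM against 361, 346 and 219 CPM (log2 difference 1.43, SE 0.31, adjusted p = 0.024). The control of preparation 2 was the highest for Gls2, Ldhb, Coq10b and Ass1, and was still below every condition 2 library. Gls2, Ldhb and Coq10b passed in each fit with 1 library left out, Ass1 in 2 of the 6 and Gad1 in 1.

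Midn, the nuclear protein midnolin, had 59.5, 63.6 and 96.6 CPM in the 3 h control and 251, 206 and 349 CPM in condition 2 (log2 difference 1.88, SE 0.20, adjusted p = 1.5e-04), and Plagl1, a zinc finger factor of an imprinted locus, had 98, 157 and 64.3 CPM against 476, 456 and 369.7 CPM (log2 difference 2.05, SE 0.33, adjusted p = 0.0037). In the 3 h GLT library with compound E, these 2 genes were at 201 and 372 CPM, against 81.6, 94 and 155 and 107, 56.4 and 119 CPM in 3 h GLT with compound D. Both passed in each fit with 1 library left out.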
